A study of Mus musculus with 12 samples.

Results

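Glycolysis and hypoxia response genes were followed in dendritic cells (DCs) of the mouse spleen; DCs present antigen and instruct T cells. The set holds 30 gene symbols, chosen by name from textbook pathways with earlier results of these data known. They were matched through mouse GENCODE, release M21, to 31 of the 57009 Ensembl identifiers in the count table. Aldoa has a second identifier with at most 0.803 CPM (counts scaled to a library total of 1000000) in any library, so each symbol is described by 1 identifier. All 31 identifiers were among the 14413 tested, and all 30 symbols are described here. They were grouped by role into 16 glycolytic enzymes, 3 regulators of flux, 3 genes of hypoxia-inducible factor (HIF) and its oxygen sensors, and 8 other hypoxia response genes. The DCs came from C57BL/6 mice that carried a B16 melanoma secreting Flt3 ligand, which expands DC numbers in vivo, so every group, controls included, came from tumor-bearing hosts. T cells, B cells, NK cells and macrophages were removed with magnetic beads, the DCs were cultured for 3 hours, and DCs were then sorted from the cultures on CD11b and CD11c. In the AlloTem group the DCs were cultured with memory T cells of BALB/c origin that are specific for alloantigen. In the SynTem group they were cultured with syngeneic memory T cells of the B6 strain. The LPS group received lipopolysaccharide, a bacterial cell wall component that activates DCs, with no T cells, and the DC only group was cultured alone. Each group had 3 libraries, numbered here as in the labels. The labels do not say whether the libraries of a group came from separate mice or from pooled mice, so p-values measure the spread between these libraries only.

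Glycolysis splits glucose into pyruvate through a fixed chain of enzymes, and lactate dehydrogenase can turn the pyruvate into lactate. DCs are known to raise glycolytic flux soon after activation, partly by moving hexokinase to mitochondria. HIF is a transcription factor that the prolyl hydroxylases mark for destruction when oxygen is present; it binds the core letters ACGTG or GCGTG and is known to raise many glycolytic enzymes, VEGF and its own hydroxylases.

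The libraries held between 13903574 and 21861156 counts. All 15 DC markers reached 1 CPM in at least 1 library, with Flt3 between 316 and 461 CPM and Zbtb46 between 102 and 224 CPM in all 12. The 6 melanoma markers summed to at most 0.614 CPM, and 4 of them had no count in any library. The sum of 23 T cell markers was 159 to 292 CPM in AlloTem, 297 to 732 CPM in SynTem, 63.9 to 168 CPM in LPS and 60.0 to 99.5 CPM in DC only. A deposited table gives each library a batch number, and in 12 of 12 libraries it equals the replicate number. Transcripts of 4 Y-linked genes summed to 131 to 220 CPM in the replicate 3 libraries of all 4 groups and to 175 CPM in SynTem 2, but to at most 10.3 CPM in the other 7 libraries. SynTem 2 thus stood apart from the other libraries of batch 2. Comparisons of members with SynTem at an unadjusted edgeR p under 0.05 are also given without SynTem 2.

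The most abundant transcripts of the set were glycolytic enzymes, but enzymes also stood at its low end. Per kilobase of exon, mean levels over the 12 libraries were 302 CPM per kb for Gapdh (glyceraldehyde 3-phosphate dehydrogenase), 119 for Pkm (pyruvate kinase), 112 for Ldha (lactate dehydrogenase A), 99.3 for Pgk1 (phosphoglycerate kinase), 92.5 for Aldoa (aldolase A) and 92.4 for Pgam1 (phosphoglycerate mutase). Next on the same scale came Eno1 (enolase) at 79.9, Gpi1 (glucose-6-phosphate isomerase) at 71.7, Pfkp (platelet-type phosphofructokinase) at 40.8 and Tpi1 (triosephosphate isomerase) at 35.5 CPM per kb. The ranges of Pkm and Ldha overlapped (105 to 149 and 102 to 126 CPM per kb), as did those of Aldoa and Pgam1 (70.8 to 125 and 87.2 to 103), while the lowest Gapdh level of 271 CPM per kb lay above all of these. Outside the enzymes the highest mean levels were 32.2 CPM per kb for Ddit4 (an inhibitor of mTORC1 signaling), 26.1 for Pfkfb3, 21.5 for Ndrg1 and 21.3 for Hif1a, the oxygen-regulated HIF subunit. At the low end, with under 5 CPM per kb, were Vegfa (4.46), Bnip3 (4.37), Pdk1 (3.50), Aldoc (aldolase C, 3.01), Egln3 (2.72), Pfkm (muscle-type phosphofructokinase, 2.49) and Ankrd37 (0.776). In CPM, the coefficient of variation over the 12 libraries was lowest for Pgam1 at 5.0% and highest for Egln3 at 79.3%, with 6.6% for Gapdh and Ldha and 43.7% for Vegfa.

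**Figure D1:**
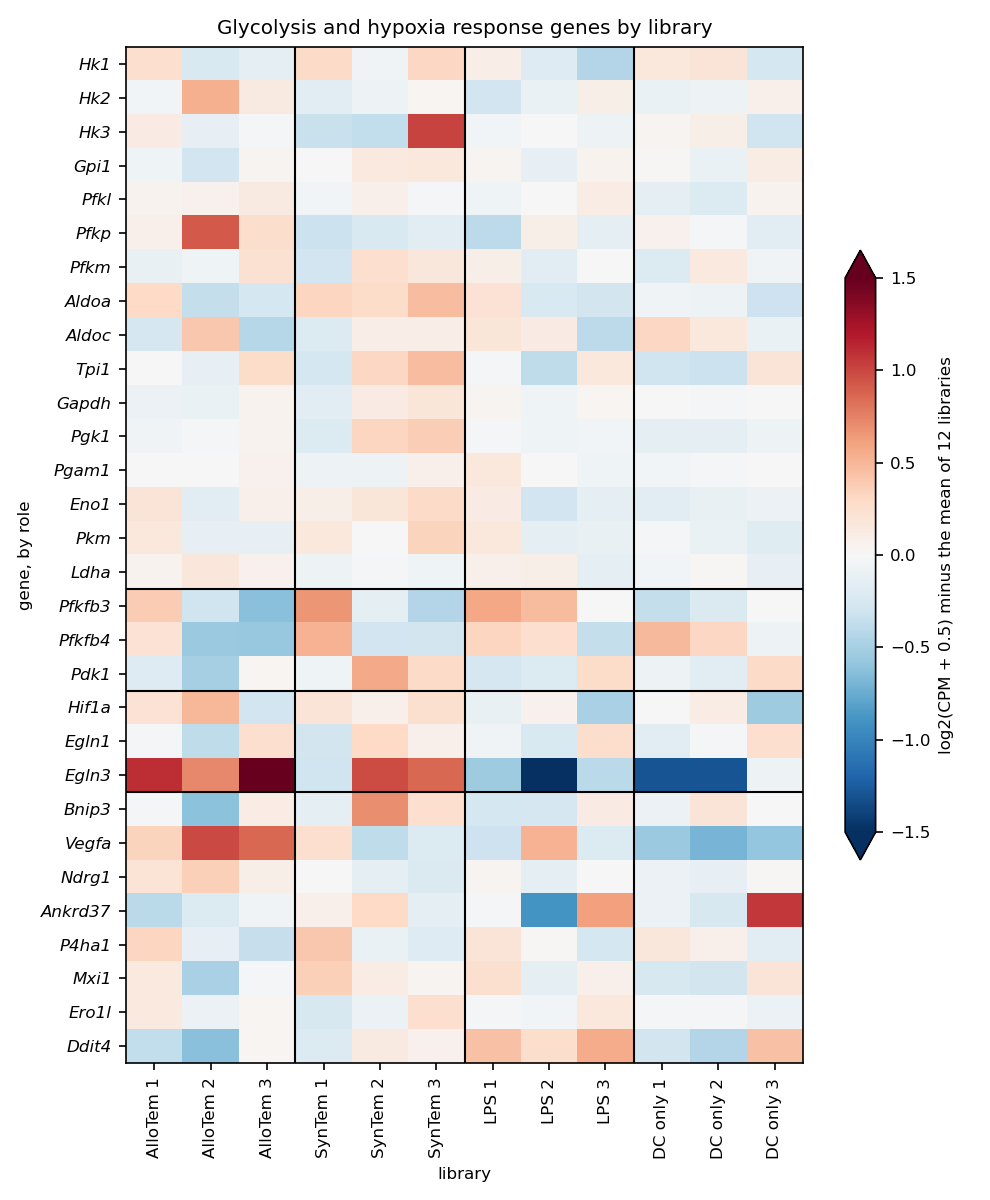
Heat map of the 30 genes (rows, by role) in the 12 libraries (columns, by group); the color is log2(CPM + 0.5) minus the gene's mean over the 12 libraries, limited to 1.5 in either direction. Egln3 and Vegfa show the strongest color in AlloTem, most enzymes stay pale, and Hk3 stands out in SynTem 3.

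Promoter letters are shown for 4 members whose values follow: Vegfa, the 1 member that passed a group test; Egln3, the member with the widest spread; and Ldha and Pgk1, enzymes long used as examples of HIF targets. Each line gives the 250 bases before the RefSeq start of the gene in GRCm38.p6, 5′ to 3′ on the strand of the gene, and capitals mark ACGTG, read on either strand (CACGT where it lies on the other strand).
Vegfa: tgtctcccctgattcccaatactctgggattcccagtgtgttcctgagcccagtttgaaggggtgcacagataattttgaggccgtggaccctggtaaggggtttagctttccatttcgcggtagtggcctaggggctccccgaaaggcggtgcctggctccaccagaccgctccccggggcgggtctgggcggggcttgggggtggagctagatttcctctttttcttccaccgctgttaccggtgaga
Egln3: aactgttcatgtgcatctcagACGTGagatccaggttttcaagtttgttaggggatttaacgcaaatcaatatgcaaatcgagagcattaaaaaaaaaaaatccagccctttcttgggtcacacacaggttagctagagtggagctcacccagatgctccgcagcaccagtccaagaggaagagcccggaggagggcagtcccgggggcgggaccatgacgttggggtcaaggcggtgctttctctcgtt
Ldha: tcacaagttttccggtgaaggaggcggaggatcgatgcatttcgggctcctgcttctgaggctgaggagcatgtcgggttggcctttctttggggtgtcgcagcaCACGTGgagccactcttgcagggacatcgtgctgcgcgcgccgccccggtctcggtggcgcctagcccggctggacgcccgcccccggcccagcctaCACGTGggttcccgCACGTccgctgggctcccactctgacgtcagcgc
Pgk1: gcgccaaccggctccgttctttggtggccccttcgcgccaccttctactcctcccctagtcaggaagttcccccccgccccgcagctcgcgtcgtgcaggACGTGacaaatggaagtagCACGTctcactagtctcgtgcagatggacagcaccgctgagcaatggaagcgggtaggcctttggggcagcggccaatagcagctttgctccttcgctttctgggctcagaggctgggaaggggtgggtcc
The windows lie at chr17:46032378-46032627 (Vegfa, minus strand), chr12:54203875-54204124 (Egln3, minus strand), chr7:46845554-46845803 (Ldha, plus strand) and chrX:106186850-106187099 (Pgk1, plus strand). ACGTG was found 5 times before Ldha, where 2 palindromes CACGTG count on both strands, 2 times before Pgk1 and 1 time before Egln3, and it is not in the Vegfa window. RefSeq windows of 300 bases, which run 50 bases past the start, were matched for 29 of the 30 members; Ndrg1 was not matched. ACGTG was in 17 of these 29 windows (58.6%), against 5305 of 27025 windows of all genes (19.6%). Either ACGTG or GCGTG was in 22 of the 29 (75.9%), against 11848 of all windows (43.8%). The members were chosen by name as glycolysis and hypoxia response genes, and the windows of all genes include genes not tested here. These shares are therefore description only. A match describes letters and is not a measured binding site.

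After 3 hours of culture, Egln3 and Vegfa had the largest log2 fold changes of the set in AlloTem against DC only, at 2.22 and 1.40, and 25 of 30 members differed by less than 0.5. Vegfa rose in AlloTem relative to DC only, and no other member passed edgeR's quasi-likelihood test at an adjusted p under 0.05 in any of the 5 group comparisons. In AlloTem against DC only 1 of 30 members was called, against 1.76% of all genes tested. In AlloTem against SynTem 0 of 30 members were called (0.167% of all genes), in AlloTem against LPS 0 of 30 (0.451%), in SynTem against DC only 0 of 30 (0.0902%) and in LPS against DC only 0 of 30 (0% of all genes). At an unadjusted p under 0.05 the edgeR test named 5 members in AlloTem against SynTem (9.58% of all genes), 4 in AlloTem against DC only (12.7%), 6 in AlloTem against LPS (6.50%), 1 in LPS against DC only (3.68%) and 4 in SynTem against DC only (8.24%). DESeq2 called 2 members in AlloTem against DC only (4.69% of all genes) and 1 in AlloTem against LPS (2.00%), where limma voom called 1 (1.30%) and 0 members (0.402%). In the other 3 comparisons both tools called 0 members; DESeq2 called 2.21% of all genes in AlloTem against SynTem, 0.0694% in LPS against DC only and 1.76% in SynTem against DC only, and limma voom called 0.180%, 0% and 0.0139%.

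Log2 fold changes were under 0.5 in size for 26 of 30 members in AlloTem against SynTem, 25 in AlloTem against DC only, 26 in AlloTem against LPS, 28 in LPS against DC only and 28 in SynTem against DC only, where 80.7%, 78.6%, 84.9%, 85.0% and 80.9% of all genes were. The members' median log2 fold change was -0.12 in AlloTem against SynTem, 0.06 in AlloTem against DC only, 0.00 in AlloTem against LPS, 0.01 in LPS against DC only and 0.10 in SynTem against DC only, beside medians over all genes between -0.01 and 0.00. Groups did not overlap for 6 members higher in AlloTem than in DC only (9.35% of all genes; none lower, 7.82%), and for 4 higher in AlloTem than in SynTem (7.09%; none lower, 5.94%). Likewise 2 members were higher in AlloTem than in LPS without overlap (5.52%) and 1 was lower (4.54%). In LPS, 2 were higher than in DC only (5.36%; none lower, 4.51%), and in SynTem 4 were higher than in DC only (7.42%; none lower, 6.83%). The 3 comparisons of AlloTem share the AlloTem libraries and the 3 against DC only share the DC only libraries, so they are not independent of each other. In these sorted bulk samples, fewer cells of a type and less RNA per cell cannot be told apart.

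**Figure D2:**
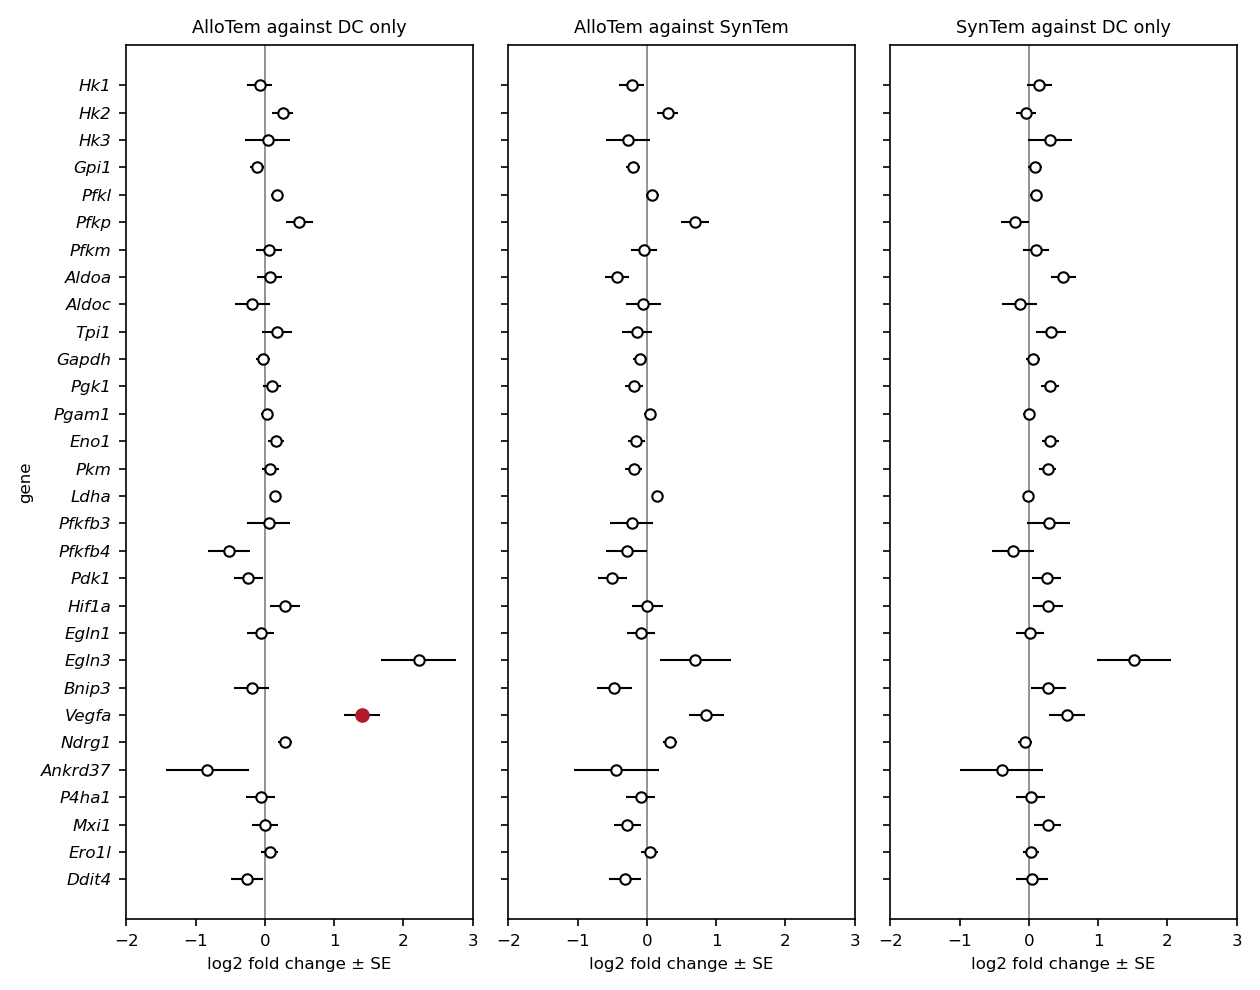
Log2 fold changes of the 30 genes (points) with standard errors (lines) from the edgeR fit, for AlloTem against DC only, AlloTem against SynTem and SynTem against DC only. The filled red point is Vegfa at 1.40 in AlloTem against DC only, the only member past an adjusted p of 0.05; most open points lie within 0.5 of zero.

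Among the hypoxia response genes, Vegfa, which encodes a secreted growth factor for blood vessels, had the clearest difference. It had 22.4, 35.5 and 32.4 CPM in the AlloTem libraries, 21.1, 13.4 and 15.3 CPM in SynTem, 14.1, 25.5 and 15.3 CPM in LPS, and 11.8, 10.7 and 11.6 CPM in DC only. All 3 AlloTem libraries were above all SynTem and DC only libraries, LPS 2 reached into the AlloTem range, and the DC only libraries lay lowest and close together. Vegfa was 30.1 ± 6.83 CPM in AlloTem and 11.4 ± 0.61 CPM in DC only (SD, n = 3 each), a log2 fold change of 1.40 ± 0.26 (SE; edgeR adjusted p = 0.0251). The difference was positive in each batch, at log2 ratios of 0.89, 1.69 and 1.44. The other comparisons of Vegfa did not pass: edgeR gave 0.86 ± 0.25 for AlloTem against SynTem (adjusted p = 0.255; 0.73 and 0.676 without SynTem 2), 0.72 ± 0.25 for AlloTem against LPS (adjusted p = 0.476), 0.69 ± 0.26 for LPS against DC only (adjusted p = 0.999) and 0.55 ± 0.26 for SynTem against DC only (adjusted p = 0.613). The call in AlloTem against DC only rested on few libraries. Without AlloTem 2 the adjusted p from edgeR was 0.0952 at a log2 fold change of 1.27, and without DC only 1, 2 or 3 it was 0.111, 0.125 or 0.0672 at 1.43, 1.36 and 1.42.

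Egln3, the prolyl hydroxylase PHD3 that marks HIF for destruction and is itself a HIF target, had the largest fold change of the set in AlloTem against DC only, but with a wide spread. It had 12.4, 9.43 and 20.7 CPM in AlloTem, 4.39, 11.3 and 10.4 CPM in SynTem, 3.64, 1.54 and 4.03 CPM in LPS, and 1.94, 1.94 and 5.19 CPM in DC only. Every AlloTem library was above every LPS and DC only library. The SynTem libraries overlapped with both AlloTem and DC only: SynTem 2 and SynTem 3 were above AlloTem 2, and SynTem 1 was below the highest DC only value. The log2 fold change was 2.22 ± 0.54 in AlloTem against DC only (SE; edgeR adjusted p = 0.0764) and 2.20 ± 0.54 in AlloTem against LPS (adjusted p = 0.142). It was 1.52 ± 0.53 in SynTem against DC only (edgeR adjusted p = 0.424; 1.28 and 0.631 without SynTem 2) and 0.70 ± 0.51 in AlloTem against SynTem (adjusted p = 0.699). With the batch number as a block in the edgeR fit, 2 members were called in AlloTem against DC only (2.91% of all genes) and 1 in AlloTem against LPS (0.944%). Egln3 passed there in AlloTem against DC only (2.28, adjusted p = 0.0227) and in AlloTem against LPS (2.17, adjusted p = 0.0490). In the fit without the block, the log2 fold change in AlloTem against DC only was 1.85 without AlloTem 3 (edgeR adjusted p = 0.139) and 2.86 without DC only 3 (0.0565), with adjusted p-values of 0.0565 to 0.302 over the libraries left out 1 at a time. In AlloTem against LPS it was 1.84 to 2.45 (edgeR adjusted p 0.198 to 0.476). In SynTem against DC only it was 1.28 to 2.16 (edgeR adjusted p 0.185 to 0.955), the highest without DC only 3. The within-batch log2 ratios were 2.41, 2.02 and 1.90 against DC only and 1.64, 2.28 and 2.22 against LPS. Both groups with higher Egln3 were cultured with T cells. The T cell marker Cd3e read 6.55, 2.93 and 3.92 CPM in AlloTem, 10.7, 47.9 and 30.4 CPM in SynTem, 1.26, 0.237 and 0.336 CPM in LPS, and 0, 0.0571 and 0.245 CPM in DC only. The part of T cell RNA in these values was not tested. Hif1a was 140 ± 36.8 CPM in AlloTem, 139 ± 8.06 in SynTem, 110.3 ± 20.5 in LPS and 114 ± 25.6 in DC only, with overlapping ranges in all 5 comparisons and log2 fold changes between -0.05 and 0.34. Egln1, the main oxygen-sensing hydroxylase PHD2, averaged between 61.9 and 65.4 CPM in the 4 groups, with log2 fold changes between -0.08 and 0.02.

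**Figure D3:**
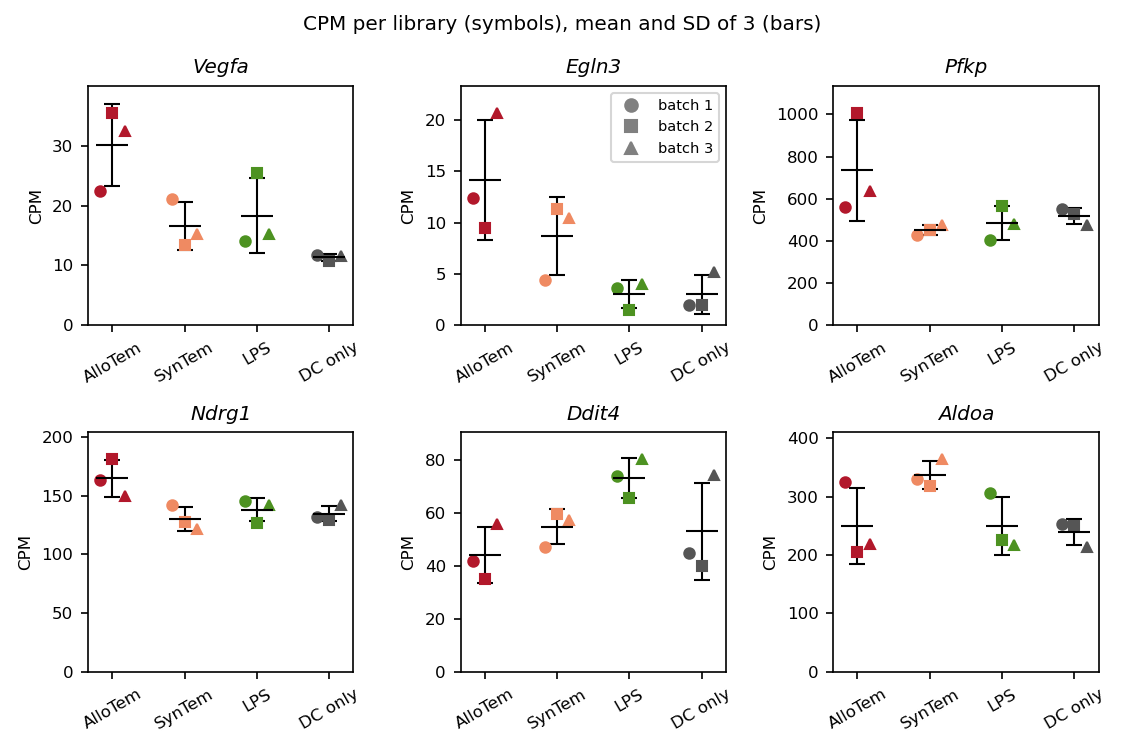
CPM of Vegfa, Egln3, Pfkp, Ndrg1, Ddit4 and Aldoa in each library (symbols, shaped by batch) with the mean and SD of the 3 libraries of a group (bars), each panel starting at 0. Vegfa and Egln3 are highest in AlloTem, Pfkp is at 1008.5 CPM in AlloTem 2, and Ddit4 is highest in LPS.

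Ndrg1, a stress-response gene that hypoxia raises in many cells, was a little above the other groups in AlloTem in every library. It had 163, 181.0 and 149.6 CPM in AlloTem, 142, 128 and 121 CPM in SynTem, 145, 127 and 142 CPM in LPS, and 132, 129.6 and 142 CPM in DC only. The lowest AlloTem library was above the highest library of each other group, but the differences did not pass. The edgeR log2 fold change was 0.34 ± 0.10 against SynTem (adjusted p = 0.237; 0.32 and 0.618 without SynTem 2), 0.29 ± 0.10 against DC only (adjusted p = 0.216) and 0.25 ± 0.10 against LPS (adjusted p = 0.585). Ddit4 went the other way in AlloTem against LPS. It had 42.1, 35.1 and 55.9 CPM in AlloTem, 47.4, 59.9 and 57.3 CPM in SynTem, 74.1, 65.6 and 80.5 CPM in LPS, and 45.1, 40.2 and 74.3 CPM in DC only. AlloTem lay below LPS in all 3 batches (log2 ratios of -0.81, -0.89 and -0.52), with a log2 fold change of -0.73 ± 0.23 that did not pass (edgeR adjusted p = 0.367). For LPS against DC only Ddit4 gave 0.46 ± 0.23 (edgeR adjusted p = 0.999), and DC only 3 lay within the LPS range.

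The other 5 hypoxia response genes overlapped between groups in all 5 comparisons. Bnip3, a mitophagy receptor, averaged 8.71 ± 2.27 CPM in AlloTem, 12.1 ± 3.65 in SynTem, 8.88 ± 1.48 in LPS and 9.95 ± 1.03 in DC only (SD, n = 3 each), and was highest in SynTem 2. P4ha1, a subunit of the collagen prolyl hydroxylase, read between 29.7 and 50.1 CPM, Mxi1, a Myc antagonist, between 40.2 and 72.9 CPM, and Ero1l, an oxidase of protein folding, between 68.6 and 97.1 CPM. Ankrd37, a HIF target, was near the detection limit at 0.356 to 2.84 CPM, and its standard errors of 0.60 to 0.61 on the log2 scale were the widest of the set. In GENCODE M21, 22.3% of the Bnip3 exon bases overlap the antisense gene Gm45507 and 22.7% of those of Ankrd37 overlap Lrp2bp on the opposite strand. The strand setting of the counting is not given in the sources used here, so reads of these pairs may not be told apart.

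The 16 glycolytic enzymes showed no call in any comparison. Their CPM summed to 4838 ± 50.8 in AlloTem, 4906 ± 399 in SynTem, 4545 ± 188 in LPS and 4504 ± 47.8 in DC only (SD, n = 3 each). The sum was 4799.7, 4895 and 4818 CPM in AlloTem, 4511, 4899 and 5308.5 CPM in SynTem, 4759, 4406 and 4471 CPM in LPS, and 4559, 4482 and 4471 CPM in DC only. All AlloTem libraries were above all LPS and DC only libraries, by a small margin, and the SynTem range overlapped with that of each other group. Much of the gap in the mean sums came from Pfkp alone, which averaged 734 CPM in AlloTem, 484 CPM in LPS and 518 CPM in DC only. In the AlloTem 2 sum Pfkp held 1008.5 CPM. With Pfkp taken out of each sum, the AlloTem range overlapped with those of LPS and DC only, and AlloTem 2 lay below every DC only library. The edgeR log2 fold changes of the 16 ran between -0.18 and 0.50 in AlloTem against DC only, with a median of 0.07, and between -0.43 and 0.70 in AlloTem against SynTem, with a median of -0.12. In LPS against DC only they ran between -0.20 and 0.11, with a median of 0.02, and in SynTem against DC only between -0.20 and 0.50, with a median of 0.10. Gapdh, often used as a reference gene, had log2 fold changes between -0.10 in AlloTem against SynTem and 0.06 in SynTem against DC only, each with an SE of 0.10.

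Pfkp, an isozyme of the enzyme that commits sugar to glycolysis, had the largest difference among the enzymes in AlloTem, and 1 library set much of it. It had 559, 1008.5 and 636 CPM in AlloTem, 426, 452 and 477 CPM in SynTem, 406, 566 and 481 CPM in LPS, and 554, 526 and 475 CPM in DC only. All AlloTem values were above those of SynTem and DC only, AlloTem 1 was within the LPS range, and AlloTem 2 stood far above the rest. The edgeR log2 fold change was 0.70 ± 0.20 against SynTem (adjusted p = 0.230; 0.70 and 0.587 without SynTem 2), 0.50 ± 0.20 against DC only (adjusted p = 0.308) and 0.60 ± 0.20 against LPS (adjusted p = 0.406). Leaving out 1 library at a time gave 0.40 to 0.86 against SynTem, 0.20 to 0.66 against DC only and 0.30 to 0.76 against LPS. The sum of 15 DC markers was also highest in AlloTem 2, at 18559 CPM against 10182 to 17379 CPM in the other libraries. Most of that sum was Cd74 (9770.5 CPM) and H2-Ab1 (4460.5 CPM). Ciita, Irf4, Batf3, Cd209a and Clec10a were also highest in AlloTem 2. Flt3, Zbtb46, Itgax, Itgam, Irf8, Clec9a, Xcr1 and Sirpa were not. The part of these markers in the Pfkp value was not tested. Hk2, the inducible hexokinase that starts glycolysis, likewise had its highest value in AlloTem 2, at 159 CPM beside 107 and 120.2 CPM in the other AlloTem libraries, 98.6 to 112 CPM in SynTem, 89.7 to 116 CPM in LPS and 102 to 116 CPM in DC only (edgeR log2 fold change 0.32 ± 0.15 in AlloTem against LPS, adjusted p = 0.757).

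Aldoa, Eno1, Pkm and Pgk1 were on average higher in SynTem than in DC only by small amounts that did not pass. Aldoa, which splits fructose bisphosphate, had 329.5, 319 and 364 CPM in SynTem and 254, 250.1 and 213 CPM in DC only, beside 325, 206 and 219.7 CPM in AlloTem and 306, 225 and 218 CPM in LPS. SynTem was above DC only in every library, with a log2 fold change of 0.50 ± 0.18 (edgeR adjusted p = 0.448; 0.54 and 0.549 without SynTem 2). AlloTem against SynTem gave -0.43 ± 0.18 (adjusted p = 0.483; -0.47 and 0.730 without SynTem 2). Eno1 had 453.5, 482 and 521 CPM in SynTem and 381, 394 and 402 CPM in DC only, a log2 fold change of 0.31 ± 0.12 (edgeR adjusted p = 0.503; 0.31 and 0.632 without SynTem 2). Pkm gave 0.27 ± 0.12 (edgeR adjusted p = 0.606), also without overlap between SynTem and DC only. Pgk1, the first ATP-producing enzyme of the chain, had 191, 277 and 285 CPM in SynTem against 202, 202 and 210.1 CPM in DC only, so SynTem 1 was low and the other SynTem libraries were high. Its log2 fold change in SynTem against DC only was 0.30 ± 0.13 (edgeR adjusted p = 0.567). It moved with the SynTem libraries, at 0.46 without SynTem 1, where it passed (edgeR adjusted p = 0.0345), 0.22 without SynTem 2 (0.771) and 0.20 without SynTem 3 (0.823). The sum of T cell markers was 297, 732 and 592 CPM in these SynTem libraries and 83.3, 99.5 and 60.0 CPM in DC only; its part in these differences was not tested. Ldha was higher in every AlloTem library (385, 417 and 388 CPM) than in SynTem (352, 362 and 355 CPM) and DC only (361, 375 and 339 CPM), at log2 fold changes of 0.15 ± 0.08 in both comparisons (edgeR adjusted p = 0.592 and 0.549). The LPS libraries, at 389.8, 394 and 336 CPM, overlapped with both.

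The same isozyme led its family in every library. Per kilobase, Hk2 made up 55.2% of the 3 hexokinases on average (44.1% to 67.2% over the 12 libraries), with Hk1 at 24.4% and Hk3 at 20.4%. Pfkp made up 80.4% of the phosphofructokinases (76.4% to 88.5%), with 14.5% for Pfkl and 5.12% for Pfkm. Aldoa made up 96.7% of the aldolases (94.7% to 97.8%), and the rest was Aldoc. Pfkfb3 made up 80.2% of the pair Pfkfb3 and Pfkfb4 (69.6% to 84.0%). The Pfkp share was 83.8% ± 4.07 in AlloTem, 77.8% ± 1.12 in SynTem, 78.9% ± 2.93 in LPS and 81.0% ± 2.31 in DC only (SD, n = 3 each). Hk3, the hexokinase known for myeloid cells, had 50.5 CPM in SynTem 3 and between 19.0 and 27.1 CPM in the other 11 libraries. The same library had a neutrophil marker sum of 883 CPM and a monocyte marker sum of 2042.5 CPM, against 29.1 to 225 CPM and 852 to 1637 CPM in the others. Most of that neutrophil sum was Mpo (564.8 CPM) and Elane (131.4 CPM). S100a8 was also highest in SynTem 3, but S100a9, Camp, Ngp and Ly6g (0.119 CPM there) were not. Of the monocyte markers, Ly6c2 and Fn1 were highest in SynTem 3, and Ccr2 and Csf1r were not. The part of these markers in the Hk3 value was not tested.

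**Figure D4:**
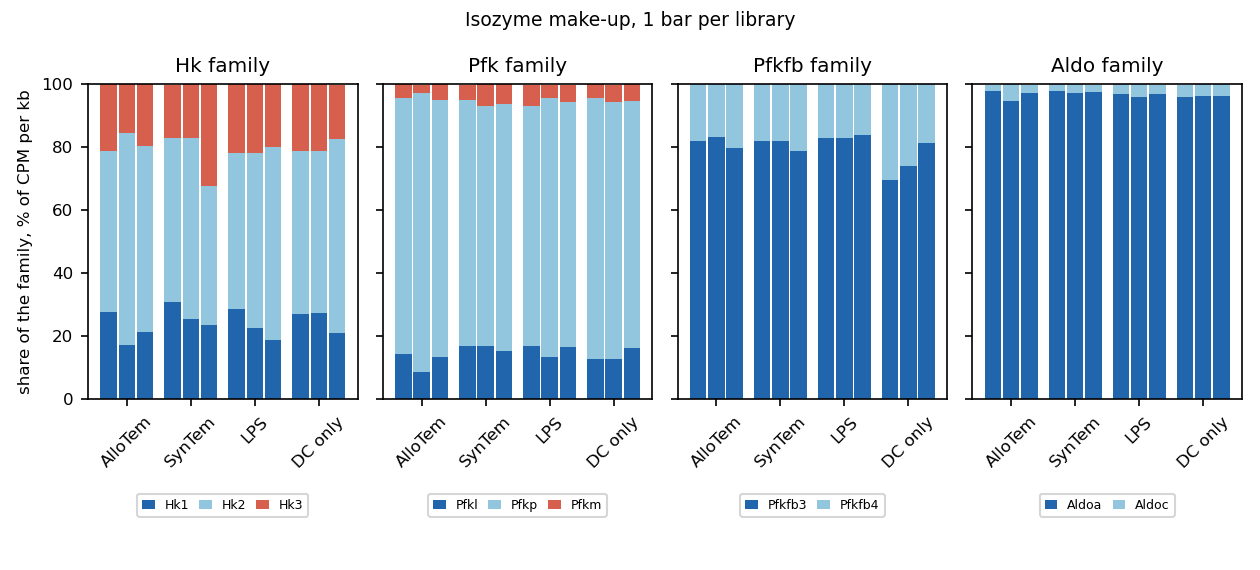
Share of each isozyme in its family, in percent of CPM per kb, with 1 stacked bar per library from replicate 1 to 3 in each group. Pfkp and Aldoa hold most of their families in every library, Hk3 is widest in SynTem 3 at 32.3%, and Pfkfb4 is widest in DC only 1 at 30.4%.

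None of the regulators of flux passed. Over the 12 libraries their coefficients of variation in CPM were 30.5% for Pfkfb3, 27.2% for Pfkfb4 and 21.9% for Pdk1, while those of the enzymes ran between 5.0% for Pgam1 and 32.2% for Hk3. Pfkfb3, which makes the fructose 2,6-bisphosphate that activates phosphofructokinase, had 247, 154 and 122 CPM in AlloTem, 299, 172 and 139.9 CPM in SynTem, 283, 264.5 and 188 CPM in LPS, and 148, 163 and 189 CPM in DC only. Its log2 fold change in LPS against DC only was 0.56 ± 0.31 (edgeR adjusted p = 0.999), made of within-batch log2 ratios of 0.93, 0.70 and -0.01. Pfkfb4, the second bifunctional enzyme, averaged 24.8 ± 8.45 CPM in AlloTem, 30.4 ± 10.6 in SynTem, 31.9 ± 7.67 in LPS and 35.6 ± 6.95 in DC only. In DC only the Pfkfb3 share of the pair was 74.9% ± 5.94, beside 81.8% ± 1.70 in AlloTem, 80.9% ± 1.87 in SynTem and 83.3% ± 0.603 in LPS, a difference with no test here. Pdk1 encodes a kinase that inhibits pyruvate dehydrogenase. It had 23.3, 18.8 and 27.2 CPM in AlloTem, 25.6, 39.8 and 32.7 CPM in SynTem, 22.4, 23.0 and 32.4 CPM in LPS, and 25.3, 23.8 and 32.7 CPM in DC only. In AlloTem against SynTem it gave -0.50 ± 0.21 (edgeR adjusted p = 0.485), with within-batch log2 ratios of -0.14, -1.06 and -0.26, and the middle value rests on SynTem 2: without that library the log2 fold change was -0.34 (edgeR adjusted p = 0.876).

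Several members differed between the deposited batches once SynTem 2 was left out. Tested as a term beside group in all 12 libraries, batch gave no call for any gene with edgeR (0%; 27.4% of genes at an unadjusted p under 0.05, and 5 of 30 members). The smallest adjusted p among the members was 0.0686, for P4ha1 and Pfkfb4. DESeq2 called 4 members and 15.7% of all genes. Without SynTem 2, the library whose Y-linked transcripts differ from the rest of batch 2, edgeR called 8 of 30 members, against 17.7% of all genes tested; without SynTem 2 and DC only 2 it called 9 members, against 20.9%. The 8 were P4ha1, Pfkfb4, Tpi1, Egln3, Pdk1, Ddit4, Egln1 and Hif1a, with edgeR adjusted p-values between 0.00723 and 0.0151. P4ha1 read 42.6 to 50.1 CPM in batch 1, 34.7 to 40.0 CPM in batch 2 and 29.7 to 33.5 CPM in batch 3, with no overlap between the 3 batches. Without SynTem 2, Pfkfb4 had a log2 difference of -0.72 in batch 3 against batch 1, and Hif1a of -0.34. Differences of the opposite sign were 0.42 for Tpi1, 0.37 for Pdk1, 0.34 for Egln1, 0.39 for Ddit4 and 0.87 for Egln3. Sums of markers of other cells differed between batches too, though not every marker or group followed. The sum of 6 NK cell markers in AlloTem, SynTem, LPS and DC only was 736, 614, 777 and 388 CPM in batch 1, 268, 196, 269.9 and 403 CPM in batch 2, and 136, 206, 110.2 and 129 CPM in batch 3. Klrk1 was higher in batch 2 than in batch 1 in AlloTem (228 against 171 CPM) and LPS (256 against 226 CPM). The other NK markers were lower there, and in SynTem Klrk1 was lower too. In DC only, Klrk1 (242 against 228 CPM), Eomes (29.8 against 27.9 CPM) and Prf1 (34.8 against 32.2 CPM) were higher in batch 2. Ncr1, Klrb1c and Gzma were slightly lower in DC only 2 than in DC only 1. The sum of 8 macrophage markers was 131, 147, 91.9 and 53.1 CPM in batch 1, 36.5 to 56.1 CPM in batch 2 and 38.6 to 56.8 CPM in batch 3. Most of it was Adgre1 in AlloTem 1 (100.2 CPM) and SynTem 1 (117.3 CPM). In DC only the sum changed little, at 53.1, 49.0 and 46.5 CPM. The part of these markers in the batch differences was not tested. Batch 3 also held the Y-linked transcripts in all 4 groups, at 204, 131, 220 and 209 CPM in AlloTem, SynTem, LPS and DC only. SynTem 2 aside, batch 3 and the presence of Y-linked transcripts cannot be told apart.

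**Figure D5:**
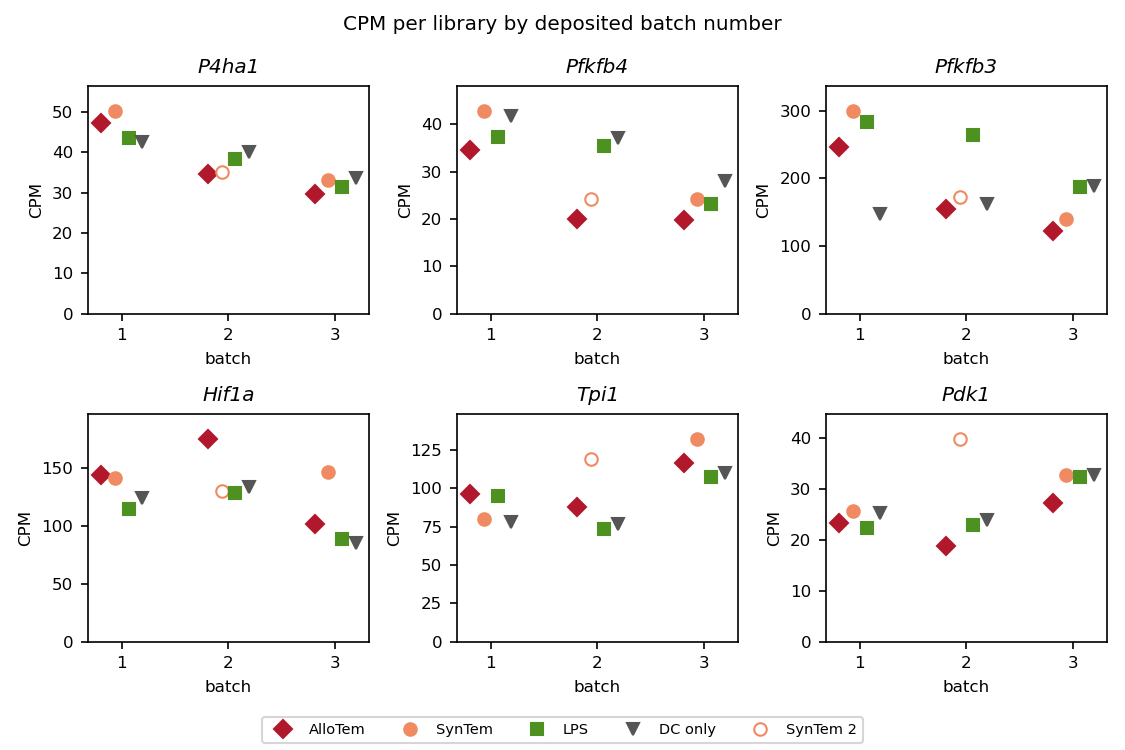
CPM of 6 members by deposited batch number, with 1 symbol per library, shaped and colored by group, and SynTem 2 drawn as an open circle; each panel starts at 0. P4ha1 separates the 3 batches, Pfkfb4 and Tpi1 do not overlap between batches 1 and 3, and SynTem 2 lies with batch 3 for Tpi1 and above all other libraries for Pdk1.

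Genes around the module were read from companion lists of 101 genes, of which 92 were tested. The lists were chosen with earlier results of these data known, so the shares called in them are description only. In the glucose and lactate transport list, 1 of 8 was called in AlloTem against DC only (1.76% of all genes) and 1 of 8 in AlloTem against SynTem (0.167%), both higher in AlloTem and both Slc2a1, the GLUT1 transporter that brings glucose into the cell. The list's median log2 fold changes were -0.02 and -0.13. Slc2a1 had 68.8, 78.1 and 65.1 CPM in AlloTem, 34.6, 28.6 and 39.9 CPM in SynTem, 46.2, 39.4 and 43.4 CPM in LPS, and 37.2, 35.7 and 26.0 CPM in DC only, so the AlloTem libraries stood apart from all others. The log2 fold change was 1.10 ± 0.16 against DC only (edgeR adjusted p = 0.00871), 1.04 ± 0.16 against SynTem (adjusted p = 0.0283) and 0.72 ± 0.16 against LPS (adjusted p = 0.0874). The call against SynTem was lost without AlloTem 1 or 2 or any 1 SynTem library (edgeR adjusted p between 0.0528 and 0.148). The call against DC only was kept without each library in turn, but not without both DC only 2 and SynTem 2 (0.0555). Within batches the log2 ratios of Slc2a1 were 0.88, 1.12 and 1.31 against DC only and 0.98, 1.44 and 0.70 against SynTem.

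In the list of further hypoxia response genes, 4 of 25 tested rose and 0 fell in AlloTem against DC only (1.35% of all genes rose), 1 rose in AlloTem against SynTem (0.153%) and 1 rose in AlloTem against LPS (0.395%). In that list 0 were called in LPS against DC only and SynTem against DC only. The list's median log2 fold changes were 0.18, 0.10, 0.16, 0.08 and 0.06 in that order. Cited2, a HIF target that dampens HIF by competing for its coactivator, rose in all 3 AlloTem comparisons. It had 222.5, 340.0 and 227 CPM in AlloTem, 73.4, 85.8 and 108 CPM in SynTem, 128, 104 and 109.8 CPM in LPS, and 114.5, 104.5 and 74.4 CPM in DC only. Its log2 fold change was 1.56 ± 0.22 against SynTem (edgeR adjusted p = 0.0193), 1.43 ± 0.21 against DC only (adjusted p = 0.0109) and 1.21 ± 0.21 against LPS (adjusted p = 0.0433). Without 1 library at a time the call against LPS was lost for each AlloTem and LPS library (edgeR adjusted p between 0.0535 and 0.209), the call against SynTem without SynTem 1 or 2 (0.0650 and 0.118), and the call against DC only without DC only 2 (0.0615).

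Other called genes of that list were low. Pgf, a relative of VEGF, averaged 1.97 ± 0.795 CPM in AlloTem and 0.231 ± 0.126 CPM in DC only, a log2 fold change of 3.07 ± 0.50 (edgeR adjusted p = 0.0159). Adm, the vasodilator adrenomedullin, averaged 2.75 ± 2.20 CPM in AlloTem and 0.173 ± 0.149 CPM in DC only (3.88 ± 0.83, edgeR adjusted p = 0.0444). In the HIF system list, with a median log2 fold change of 0.08 in AlloTem against DC only, 1 of 9 tested genes was called (1.76% of all genes): Epas1 (HIF-2α), at 6.18 ± 3.08 CPM in AlloTem and 0.424 ± 0.270 CPM in DC only (3.82 ± 0.74, edgeR adjusted p = 0.0296). Epas1 was also 6.04 ± 4.19 CPM in SynTem (3.79 ± 0.74 in SynTem against DC only, edgeR adjusted p = 0.109), where T cell markers were highest; the part of T cell RNA was not tested. Each of these 3 calls was lost without at least 1 of the AlloTem or DC only libraries, with the highest edgeR adjusted p at 0.0950 for Pgf, 0.205 for Adm and 0.158 for Epas1. With the batch block Adm no longer passed (edgeR adjusted p = 0.0525), nor did Cited2 in AlloTem against LPS (0.0526).

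No gene of the other companion lists was called in any comparison. These were 0 of 11 tested in other glycolysis and gluconeogenesis, 0 of 7 in the pentose phosphate pathway, 0 of 22 in pyruvate dehydrogenase and the tricarboxylic acid cycle, and 0 of 10 in mTORC1 and Myc. Medians of these lists lay between -0.16 and 0.11 on the log2 scale over the 5 comparisons. Ldhb, the lactate dehydrogenase subunit typical of heart and of resting lymphocytes, had 3.20, 1.52 and 4.92 CPM in SynTem and 0.563, 0.171 and 0.980 CPM in DC only (log2 fold change 2.46 ± 0.59, edgeR adjusted p = 0.197). The T cell marker sum in these SynTem libraries was 297, 732 and 592 CPM, and the part of T cell RNA was not tested. Pgls, an enzyme of the pentose phosphate pathway, averaged 125 ± 10.7 CPM in SynTem and 139 ± 1.75 CPM in DC only (-0.16 ± 0.08, edgeR adjusted p = 0.637). Myc, a transcription factor that drives growth and glycolytic genes, had 65.1, 96.8 and 60.2 CPM in AlloTem and 36.8, 43.6 and 47.6 CPM in SynTem, without overlap (0.79 ± 0.19, edgeR adjusted p = 0.150). Fh1, fumarate hydratase of the tricarboxylic acid cycle, had 115, 154 and 161 CPM in AlloTem against 86.8, 90.6 and 107 CPM in LPS (0.60 ± 0.15, edgeR adjusted p = 0.145), and with the batch block it passed (0.59, edgeR adjusted p = 0.0223).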

How the data were processed

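Per the labels' protocols, DNase-treated RNA went into TruSeq RNA libraries, sequenced as single-end reads (NextSeq). The authors deposited, as raw counts, values per Ensembl gene, not normalized, for 12 libraries of 4 groups of 3. The submitters' processing notes name the build mm10. Aligner, counter, annotation release and strand setting: not given in the sources used here. Gene symbols, coordinates and exon lengths came from GENCODE M21 for 52080 of 57009 identifiers; the rest held 0.754% of counts. The 30 members, the companion lists and the tests were chosen with earlier results of these data known.

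Counts were tested with edgeR 4.0.16 in R 4.3.3: filterByExpr (minimum count 10, minimum total 15), TMM scaling and a robust quasi-likelihood F test, with 1 mean per group over all 12 libraries and Benjamini-Hochberg adjustment over 14413 genes. The script was tested on simulated data. The calling threshold was an adjusted p of 0.05, and standard errors are the size of the log2 change over the root of its F statistic. CPM are counts scaled to a TMM-adjusted total of 1000000, and within-batch log2 ratios add 0.5 CPM. All tests were two-sided. Counting error alone is small at these depths except for genes under about 1 CPM. The closest libraries, DC only 1 and DC only 2, differed by more than sampling noise, at a chi-square per degree of freedom of 5.82. Other pairs within a group had 24.08 to 72.99. Deviations of DC only 2 correlated at 0.22, 0.276 and 0.265 with AlloTem 1, SynTem 1 and LPS 1. With AlloTem 2, SynTem 2 and LPS 2 they correlated at 0.143, -0.249 and 0.089. Whether DC only 1 and DC only 2 are independent cultures is not given. If they are not, the spread of DC only is understated.

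Full statistics were given for members called in at least 1 comparison and the 8 others with the smallest p, and for companions that were called or had the smallest p of their list; 1 called companion is counted but not reported here by name. Alternatives were RLE scaling, DESeq2 1.42.0, limma voom (limma 3.58.1), no filter, a replicate block, a Y-linked covariate, only the libraries compared, no SynTem 2 and DC only 2, and each library left out. Batch numbers in the deposited table pair the libraries across groups; the deviations of same-number libraries had a median correlation of 0.247 over 18 pairs (-0.249 to 0.632, 12 above 0.1), against -0.2 for other pairs.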

Additional observations from a re-analysis of the deposited data

How the results depend on the processing

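No result changed sign. Of 266 values of the 19 member results with full statistics, 253 kept direction and side of the threshold, 8 passed newly and 5 no longer passed; of 168 companion values, repeated later, 113 were the same, 4 passed newly and 51 no longer passed. All-gene calls (main 24, 253, 65, 0 and 13 for AlloTem against SynTem, AlloTem against DC only, AlloTem against LPS, LPS against DC only and SynTem against DC only) moved with the tool. In that order DESeq2 called 318, 676, 288, 10 and 254, and limma voom called 2 in the last. With the replicate block edgeR called 78, 420, 136, 0 and 21, with the Y-linked covariate 39, 598, 188, 0 and 46, with only the 6 libraries compared 0 (989 at an unadjusted p under 0.05), 98, 9, 0 and 1, and without DC only 2 and SynTem 2 it called 2, 16, 25, 1 and 1. Without the filter, the first and last were 41 and 33. Leaving out 1 library gave 3 to 47, 42 to 323, 9 to 55, 0 to 1 and 0 to 56. Members called in AlloTem against DC only (1) were 2 under DESeq2, the replicate block and the Y-linked covariate, 0 without DC only 2 and SynTem 2, and 0 to 1 without 1 library. In AlloTem against LPS (0) they were 1 under DESeq2 and the block and 2 under the Y-linked covariate (Egln3, and Ddit4 at an edgeR adjusted p of 0.0100), and in SynTem against DC only 0 to 1 without 1 library. The batch block changed no other member call. For the batch term (0 members, 0 genes) the counts were 4 and 2259 under DESeq2, 2 and 179 without the filter, 9 and 3078 without DC only 2 and SynTem 2, and 0 to 8 and 0 to 2629 without 1 library. Without division by length the mean share was 90.4% for Pfkp and 86.2% for Pfkfb3. The causes were not tested. With 3 libraries per group, Vegfa was the only member past the threshold, and its call ended when any 1 of 4 libraries was left out.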
